A study of Mus musculus with 6 samples.

Results

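The genes described here belong to cholesterol synthesis, its control by sterols, cholesterol efflux and fatty acid handling in mouse microglia. Of 39 listed genes, 28 had a probe that was above background (detection p under 0.01) on at least 2 arrays, and the brightest such probe stood for each gene, among 8598 genes measured in that way in all. No probe was named here for Acat2, Hmgcs1, Fdft1, Nr1h2 and Soat1. The probes of Idi1, Sc5d, Abca1, Scd1, Fasn and Acaca were above background on 0 of 6 arrays, so their levels were not detectable here. Of the 28, 23 were detected on all 6 arrays.

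RNA came from microglia, the resident macrophages of the brain, taken from mice at postnatal day 3 and treated in culture. Ntg mice were C57BL/6, and LRRK2KO mice, in which the gene of leucine-rich repeat kinase 2 is disrupted, were B6.129X1(FVB)-Lrrk2tm1.1Cai/J. Each genotype gave 1 array for cells kept 24 h in PBS, 1 for cells given lipopolysaccharide (LPS), a bacterial cell wall component, for 6 h, and 1 for cells given LPS for 24 h. No group had a replicate array, no array held PBS at 6 h, and the labels do not say whether arms came from separate cultures or how many mice gave each culture. Time and treatment therefore cannot be told apart where LPS at 6 h is set against PBS.

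Cells make cholesterol from acetyl-CoA through mevalonate, the isoprenoid farnesyl pyrophosphate, squalene and lanosterol. When membrane sterol is low, SCAP carries the precursor of SREBP2, the product of Srebf2, to the Golgi, where its release lets it switch on the genes of this pathway, and INSIG proteins hold SCAP back when sterol is plentiful. Oxysterols made from cholesterol, among them 25-hydroxycholesterol from CH25H, block SREBP processing and activate the liver X receptors, which switch on the exporters ABCA1 and ABCG1 and apolipoprotein E. In microglia these routes handle the lipid taken up from myelin and dead cells, and surplus lipid is kept in droplets coated by perilipins.

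As a view of the DNA next to these genes, RefSeq promoter windows (GRCm38.p6, 250 bases before to 50 after the start of transcription) were found for 30 of the 39 genes. None was matched for Fdps, Sqle, Fdft1, Abcg1, Stard4, Scd1, Scd2, Lpl and Fabp5. The sequences below show the 160 bases before the start for Cyp51, Msmo1, Insig1 and Srebf2, whose levels fell from 6 h to 24 h of LPS, for Dhcr7, whose level rose over that interval, and for Hmgcs1, the only listed gene with an exact match to the sterol element searched. They lie at chr5:4104698-4104857 and chr8:64733579-64733738 on the minus strand, and at chr5:28071252-28071411, chr15:82147109-82147268, chr7:143830054-143830213 and chr13:119690191-119690350 on the plus strand, and each is read 5′ to 3′ toward its gene. Capitals mark CCAAT boxes (CCAAT, or ATTGG on the other strand), the E-box CACGTG and the sterol regulatory element TCACNCCAC. Of 3 annotated starts of Dhcr7 the one with most matches is shown.
Cyp51: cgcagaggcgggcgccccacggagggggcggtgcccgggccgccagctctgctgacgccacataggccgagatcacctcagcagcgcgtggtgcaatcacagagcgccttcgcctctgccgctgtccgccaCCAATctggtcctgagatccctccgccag
Msmo1: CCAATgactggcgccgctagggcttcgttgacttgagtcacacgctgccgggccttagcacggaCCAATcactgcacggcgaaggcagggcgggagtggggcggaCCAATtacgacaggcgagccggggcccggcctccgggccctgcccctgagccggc
Insig1: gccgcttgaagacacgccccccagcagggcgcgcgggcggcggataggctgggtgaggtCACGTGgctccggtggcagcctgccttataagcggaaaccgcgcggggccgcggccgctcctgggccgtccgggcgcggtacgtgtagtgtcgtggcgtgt
Srebf2: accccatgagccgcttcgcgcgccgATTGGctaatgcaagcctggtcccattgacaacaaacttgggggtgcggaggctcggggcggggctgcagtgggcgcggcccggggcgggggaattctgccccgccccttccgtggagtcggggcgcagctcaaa
Dhcr7: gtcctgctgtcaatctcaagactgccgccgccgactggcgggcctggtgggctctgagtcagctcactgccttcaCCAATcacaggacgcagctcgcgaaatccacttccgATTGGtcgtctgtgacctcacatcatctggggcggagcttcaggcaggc
Hmgcs1: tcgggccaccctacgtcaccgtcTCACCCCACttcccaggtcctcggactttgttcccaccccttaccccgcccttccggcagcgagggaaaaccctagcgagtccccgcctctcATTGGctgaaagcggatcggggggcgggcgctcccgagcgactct

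Msmo1 has 3 CCAAT boxes in the stretch shown, Dhcr7 has 2, and Cyp51, Srebf2 and Hmgcs1 have 1 each. Insig1 has its E-box there and a CCAAT box farther upstream. Over the whole windows, on both strands, CCAAT was present in 21 of 30 listed genes (70.0%), against 41.1% of 27025 genes with a window. The E-box was present in 7 of 30 (23.3%), against 8.09%, and the exact sterol element in 1 of 30 (3.33%), against 1.44%. With at most 1 mismatch to the sterol element 13 of 30 (43.3%) had a match, against 26.7%. Motifs may overlap, a gene with several starts has several windows, and a match describes the letters only.

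Arrays of the same arm had the highest correlations with each other over all genes, at 0.980 to 0.983 (a description across genes that share each array), and 13126 to 15049 of 45281 probes were detected per array. Lrrk2 itself had 6 probes, which were detected on at most 1 array, Ntg arrays included, so it gives no check on the labelled genotypes. Microglial markers were present, with 8 of 10 probed genes detected, among them Cx3cr1, Csf1r and Aif1, but P2ry12 and Siglech were not detected. Their summed linear intensity was 38190 and 41760 on the PBS arrays, 17950 and 24450 at LPS 6 h, and 18490 and 21790 at LPS 24 h. Of 8 astrocyte markers 6 were detected and Aqp4 and S100b were not; their sum was 296 to 312 in PBS, 797 to 1126 at 6 h and 1748 to 2349 at 24 h, with Gja1 giving most of the rise. Of 9 oligodendrocyte-lineage markers with a probe 6 were detected, with a sum of 714 to 1297, and 0 of 6 neuronal and 0 of 2 lymphocyte markers were detected. The part of these cells in the results below was not tested, and in such bulk RNA fewer cells of a type and less RNA per cell cannot be told apart.

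Levels are log2 intensities after background correction and quantile normalization, and values of an arm are given in the order PBS 24 h, LPS 6 h, LPS 24 h. A probe's level can be compared between arrays but not with another probe's. Differences between arms are log2 differences with their standard errors (SE, n = 2 arrays per arm, 1 of each genotype) from limma's additive fit of arm and genotype over all 6 arrays, and a gene was called at a Benjamini-Hochberg adjusted p under 0.05 over all 8598 genes. The p-values reflect how far these 6 arrays scatter around the additive fit. That scatter holds array noise, which may be technical only, and any dependence of the response on genotype. The 3 comparisons between arms share arrays, so they are set side by side and do not support each other.

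**Figure D1:**
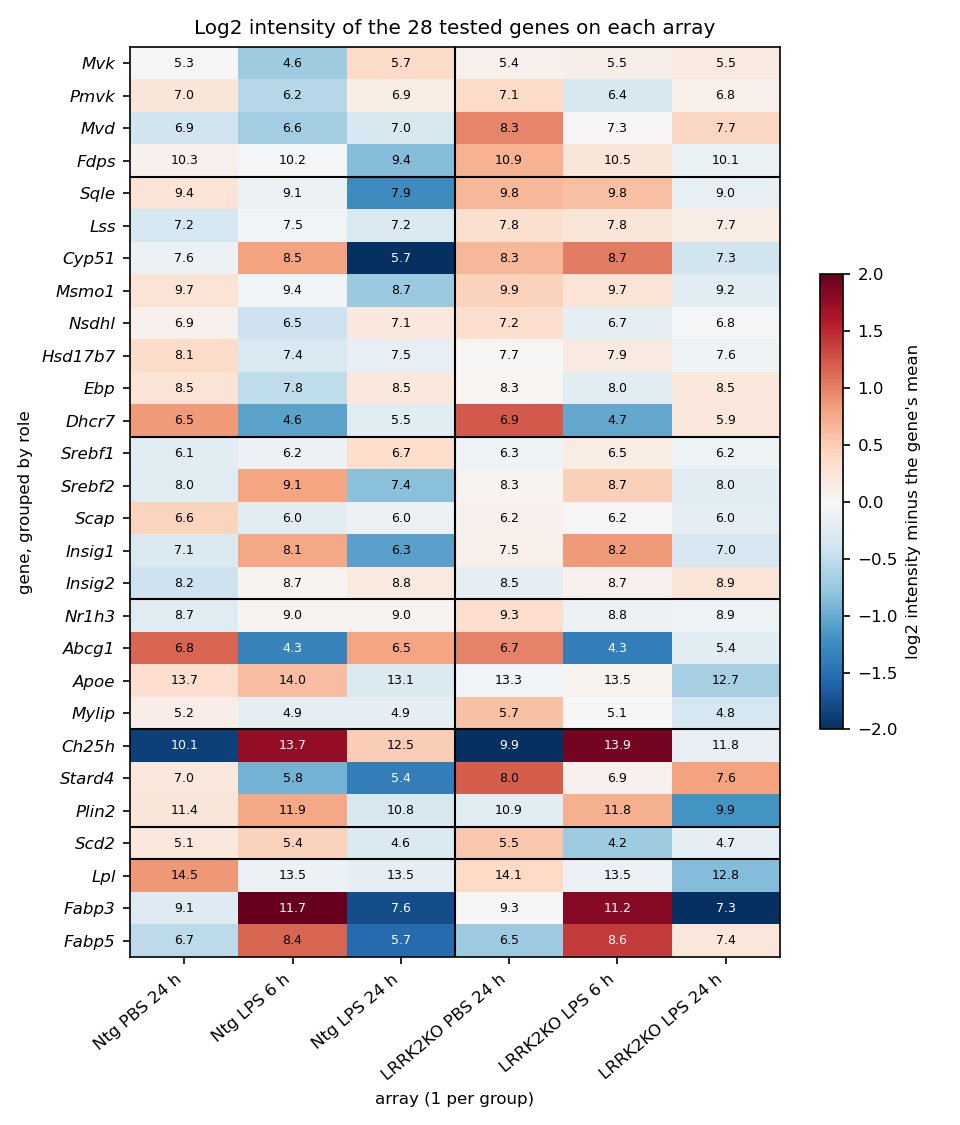
Log2 intensity of each of the 28 tested genes (rows, grouped by role between black lines) on each of the 6 arrays (columns). The printed number is the level and the colour its distance from the gene's own mean. Ch25h and Fabp3 are reddest at LPS 6 h in both genotypes, while Cyp51 is lowest on the Ntg LPS 24 h array, at 5.69.

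After LPS for 24 h, 5 of the 12 tested enzymes of sterol synthesis, together with Apoe, Lpl and Fabp3, were lower than in PBS and the oxysterol enzyme gene Ch25h was higher. Of the 28 genes 1 rose, against a background of 6.54% of all genes, and 8 fell, against 8.99%. Their median log2 difference was -0.52, and that of all genes was -0.01. The genes that fell were Fdps, Sqle, Cyp51, Msmo1 and Dhcr7 of sterol synthesis, together with Apoe, Lpl and Fabp3. At 6 h, 5 of the 28 rose, against 15.8% of all genes, and 5 fell, against 26.2%, with medians of -0.26 and -0.13. From 6 h to 24 h, 3 rose, against 14.1%, and 10 fell, against 9.68%, with medians of -0.14 and 0.10.

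**Figure D2:**
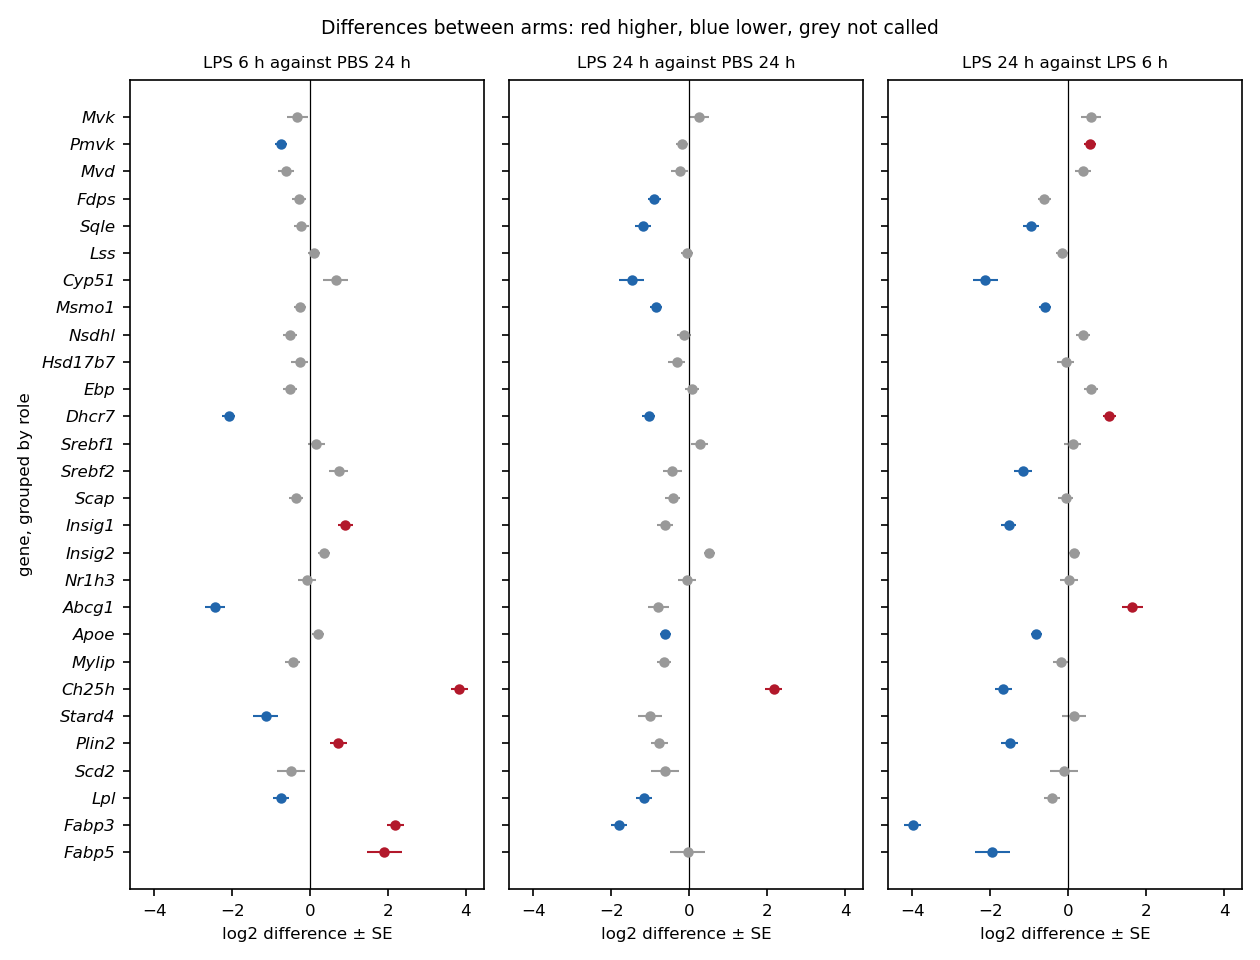
Log2 difference (x axis) with its SE for the 28 tested genes (y axis) in the 3 comparisons between arms, from limma's fit over 6 arrays. Red points rose, blue points fell and grey points were not called. Ch25h is highest at 6 h against PBS (3.83), and Fabp3 lowest at 24 h against 6 h (-3.99).

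Most calls were lost in some fit that left an array out. Leaving one out left its arm with 1 array, which was then assumed to vary like the others. Such a fit also has fewer residual degrees of freedom. A call lost there does not by itself mean that the omitted array differed: Msmo1 and Pmvk from 6 h to 24 h were lost even without a PBS array. Of the 32 called differences 7 were called under every setting that gave them a value, arrays left out included: Ch25h and Fabp3 at 24 h and at 6 h against PBS, Fabp3 from 6 h to 24 h, and Abcg1 and Dhcr7 at 6 h. Fewer of the 28 fell at 24 h against PBS when any array of those arms was left out, and fewer of all genes did. Without either 6 h array more of the 28 and more of all genes fell. At 6 h fewer of the 28 rose and fell without either PBS array or the Ntg LPS 6 h array, and fewer of all genes did. From 6 h to 24 h the same held without the Ntg array of 6 h or either 24 h array. Without the detection filter 9 of the 32 calls were lost, and without the genotype term 14. None of the 32 changed sign in any setting. Among the 7 always called, Abcg1 and Dhcr7 were below background on both 6 h arrays. The setting that kept only probes detected on all 6 arrays gave these genes no value.

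The early, mevalonate steps were represented by 4 of 7 genes. Fdps, which encodes farnesyl pyrophosphate synthase, the branch point to sterols and to protein prenylation, read 10.32, 10.19 and 9.35 on the Ntg arrays and 10.92, 10.47 and 10.09 on the LRRK2KO arrays. Both LPS 24 h arrays were below both PBS arrays. Fdps fell by 0.89 ± 0.17 at 24 h against PBS (adjusted p = 0.0215, limma), and its difference from 6 h to 24 h, -0.61 ± 0.17, narrowly missed the threshold (adjusted p = 0.0502). The fall was lost if any 1 of its 4 arrays was omitted (-1.04 to -0.75, adjusted p = 0.0944 to 0.205).

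Pmvk, the gene of phosphomevalonate kinase, read 6.97, 6.16 and 6.88 in Ntg and 7.10, 6.41 and 6.82 in LRRK2KO. Both 6 h arrays lay below the other 4. It fell by 0.75 ± 0.15 at 6 h (adjusted p = 0.0125), a call lost if the Ntg array of 6 h or either PBS array was omitted (-0.77 to -0.64, adjusted p = 0.06 to 0.069). It rose by 0.57 ± 0.15 from 6 h to 24 h (adjusted p = 0.0467), a call lost whichever array was left out (0.44 to 0.69, adjusted p = 0.0593 to 0.355) and also without background correction (0.30, adjusted p = 0.0649). Mevalonate kinase, Mvk, ranged from 4.65 to 5.74, and the decarboxylase gene Mvd from 6.62 to 8.29, and neither was called in a comparison between arms.

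From squalene to cholesterol, 8 of 10 genes were tested. Sqle encodes squalene epoxidase, a rate-limiting enzyme of the pathway after mevalonate is made, and it read 9.44, 9.06 and 7.92 in Ntg and 9.84, 9.77 and 9.01 in LRRK2KO. In each genotype the LPS 24 h array was the lowest. Sqle fell by 1.18 ± 0.20 at 24 h against PBS (adjusted p = 0.0154) and by 0.95 ± 0.20 against 6 h (adjusted p = 0.0235). The first call was lost if the Ntg array of PBS (-0.93, adjusted p = 0.0979) or of LPS 24 h (-0.91, adjusted p = 0.136) was omitted, and the second if any 1 of its 4 arrays was (-1.22 to -0.68, adjusted p = 0.0602 to 0.207). A second Sqle probe gave -0.89 and -1.31 for these differences, but at 6 h against PBS it gave 0.42 where the probe used gave -0.22.

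Cyp51, the gene of lanosterol demethylase, had levels of 7.58, 8.50 and 5.69 in Ntg and 8.35, 8.73 and 7.29 in LRRK2KO. The 6 h array was the highest and the 24 h array the lowest in each genotype, and arms did not overlap between 6 h and 24 h. It fell by 2.13 ± 0.32 from 6 h to 24 h, 4.37-fold (adjusted p = 0.0102), and by 1.47 ± 0.32 at 24 h against PBS, 2.78-fold (adjusted p = 0.0317). Without the Ntg LPS 24 h array these differences were -1.58 (adjusted p = 0.062) and -0.92 (adjusted p = 0.162), and the second was also lost if the PBS array of Ntg (-1.40, adjusted p = 0.161) or of LRRK2KO (-1.55, adjusted p = 0.119) was omitted.

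Msmo1 encodes the methylsterol monooxygenase that acts after CYP51. Its levels were 9.75, 9.42 and 8.73 in Ntg and 9.93, 9.75 and 9.25 in LRRK2KO, lowest at 24 h in each genotype. Msmo1 fell by 0.85 ± 0.16 at 24 h against PBS (adjusted p = 0.0199) and by 0.59 ± 0.16 against 6 h (adjusted p = 0.0431). The first call was lost if any 1 of its 4 arrays was omitted (-0.98 to -0.71, adjusted p = 0.0676 to 0.203), and the second whichever of the 6 was omitted (-0.73 to -0.46, adjusted p = 0.0598 to 0.341) or with a common median of all probes (-0.41, adjusted p = 0.262).

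Dhcr7, the gene of the last reductase of the pathway, followed another course. It read 6.54, 4.61 and 5.46 in Ntg and 6.91, 4.66 and 5.91 in LRRK2KO. Both 6 h arrays were below background, and the 3 arms did not overlap. Against PBS, on the background-corrected scale, it fell at least 2.88-fold at 6 h. For such bounds a probe below background was set at the lowest signal detected on its array. Without background correction the log2 difference of Dhcr7 at 6 h was -0.83. At 24 h Dhcr7 fell by 1.04 ± 0.16 (adjusted p = 0.0126). From 6 h to 24 h it rose at least 1.40-fold. For the values as read, background readings included, limma gave -2.09 ± 0.16 at 6 h (adjusted p = 0.000713) and 1.05 ± 0.16 from 6 h to 24 h (adjusted p = 0.0113). The difference at 24 h against PBS was lost if any 1 of its 4 arrays was omitted (-1.15 to -0.92, adjusted p = 0.067 to 0.135), and the rise if either 24 h array was (0.94 and 1.17). The rise was also lost without background correction (0.34, adjusted p = 0.053) and with the authors' deposited values (0.34, adjusted p = 0.0529). The remaining genes of this stretch, Lss, Nsdhl, Hsd17b7 and Ebp, were not called in any comparison between arms, with log2 differences between -0.52 and 0.59. A second Lss probe, detected on 3 arrays, gave 0.72 at 24 h against PBS where the probe used gave -0.05.

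Of the 12 tested enzymes of sterol synthesis, 5 fell and 0 rose at 24 h against PBS, where 8.99% of all genes fell, and their median difference was -0.28. At 6 h 2 fell, Pmvk and Dhcr7, against 26.2% of all genes. From 6 h to 24 h 3 fell, against 9.68%, and 2 rose, against 14.1%. The falls after 6 h were in Sqle, Cyp51 and Msmo1, and the rises in the enzymes that had fallen at 6 h, Pmvk and Dhcr7.

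All 5 genes of sterol sensing were tested. At 6 h 1 rose, against 15.8% of all genes, and from 6 h to 24 h 2 fell, against 9.68%. Insig1, whose protein retains SCAP in the endoplasmic reticulum and which is itself a target of SREBP2, read 7.08, 8.14 and 6.28 in Ntg and 7.47, 8.23 and 7.04 in LRRK2KO. The 6 h arrays were above the PBS arrays and the 24 h arrays below them, with no overlap between arms. Insig1 rose by 0.91 ± 0.20 at 6 h (adjusted p = 0.0148) and fell by 1.52 ± 0.20 from 6 h to 24 h (adjusted p = 0.00773), while its difference at 24 h against PBS was -0.62 ± 0.20 (adjusted p = 0.092). The rise was lost without either PBS array or the Ntg LPS 6 h array (0.67 to 0.92, adjusted p = 0.0717 to 0.0757) and with arrays scaled to a common median of all probes (0.52, adjusted p = 0.114), an alternative added after seeing the data, and the fall without the Ntg LPS 24 h array (-1.27, adjusted p = 0.0732). A second probe detected on all arrays gave 0.75 at 6 h and -1.33 afterwards.

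Srebf2, the gene of SREBP2, read 8.02, 9.06 and 7.44 in Ntg and 8.32, 8.74 and 8.04 in LRRK2KO. Its 6 h arrays were the highest of each genotype. Srebf2 fell by 1.16 ± 0.24 from 6 h to 24 h (adjusted p = 0.0225), and its difference at 6 h against PBS, 0.73 ± 0.24, just missed the threshold (adjusted p = 0.0533). The fall was lost if the Ntg array of 6 h (-0.78, adjusted p = 0.0763), that of 24 h (-0.85, adjusted p = 0.182) or the LRRK2KO array of 24 h (-1.47, adjusted p = 0.0572) was omitted.

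Srebf1, which drives fatty acid synthesis, stayed between 6.10 and 6.68 over the 6 arrays, reading 6.10, 6.20 and 6.68 in Ntg and 6.26, 6.48 and 6.23 in LRRK2KO. Its difference was 0.16 ± 0.22 at 6 h and 0.27 ± 0.22 at 24 h against PBS, not called in either. Scap, from 5.95 to 6.61, and Insig2, from 8.22 to 8.90, were not called either. Insig2 gave 0.52 ± 0.15 at 24 h against PBS (adjusted p = 0.0676).

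**Figure D3:**
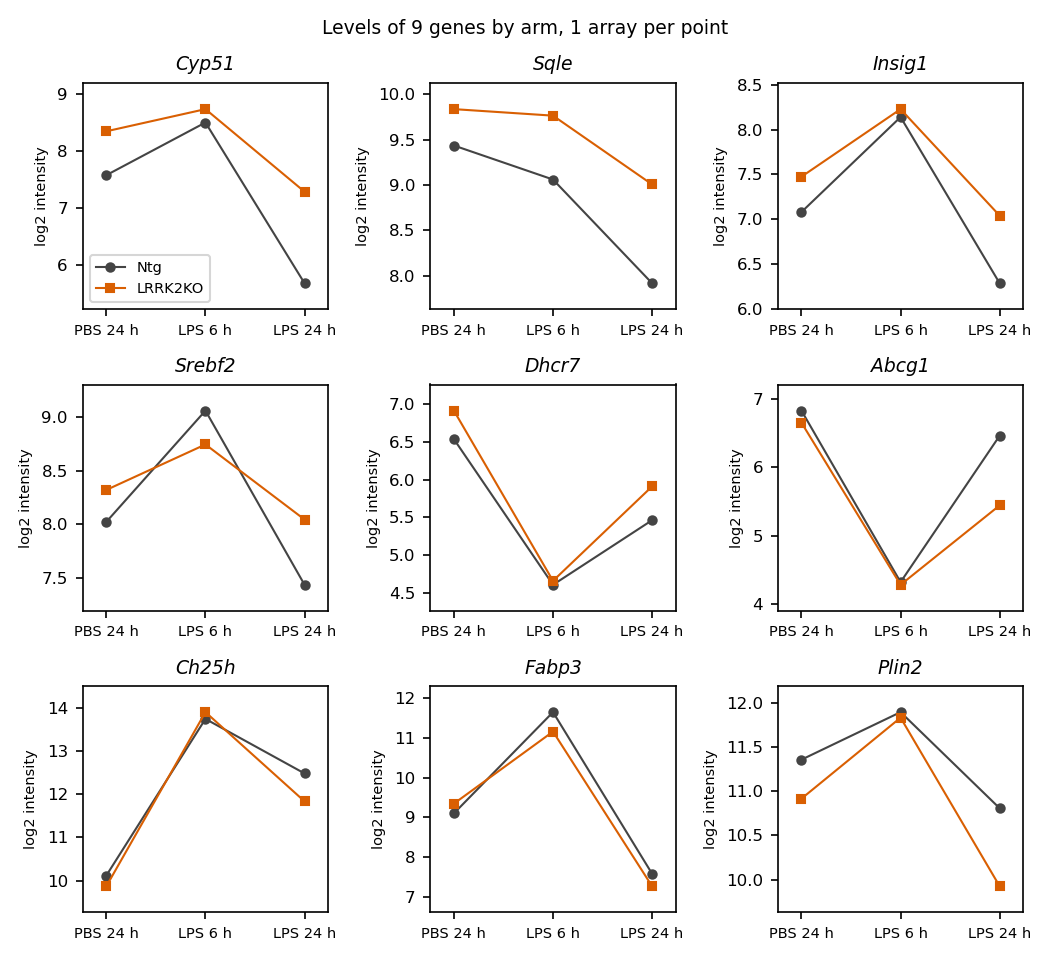
Log2 intensity (y axis, a separate scale for each gene) of 9 genes in the 3 arms (x axis), with 1 array per point and a line for each genotype. Cyp51, Insig1 and Srebf2 are highest at LPS 6 h and lowest at 24 h in both genotypes, Dhcr7 and Abcg1 are lowest at 6 h, and Ch25h is highest at 6 h and stays above PBS at 24 h.

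Among the liver X receptor genes and exporters, 4 of 6 were tested. Abcg1, the exporter that loads cholesterol onto high-density lipoprotein, read 6.83, 4.32 and 6.46 in Ntg and 6.65, 4.29 and 5.45 in LRRK2KO. It was below background on both 6 h arrays and detected on the other 4. On the background-corrected scale Abcg1 fell at least 2.91-fold at 6 h and rose at least 1.69-fold from 6 h to 24 h. Without background correction its log2 difference at 6 h was -0.97. Its rise was as small as 0.60 among the settings run. For the values as read, background readings included, limma gave -2.44 ± 0.26 (adjusted p = 0.00161) and 1.65 ± 0.26 (adjusted p = 0.0113). The rise was lost without the Ntg LPS 6 h array (1.37, adjusted p = 0.0593) or the Ntg LPS 24 h array (1.19, adjusted p = 0.0745).

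Nr1h3, the gene of liver X receptor alpha, read 8.69, 8.99 and 9.004 in Ntg and 9.28, 8.82 and 8.86 in LRRK2KO, and its differences between arms were within -0.08 and 0.03, each with an SE of 0.23. Mylip, whose ubiquitin ligase removes the LDL receptor, was detected on 3 arrays, ranged from 4.76 to 5.71 and was not called.

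Apoe, the main lipid carrier made by glia, read 13.73, 14.01 and 13.11 in Ntg and 13.34, 13.46 and 12.74 in LRRK2KO. The 24 h array was the lowest of each genotype, and both lay below both PBS arrays. Apoe fell by 0.61 ± 0.15 at 24 h against PBS (adjusted p = 0.0425) and by 0.82 ± 0.15 against 6 h (adjusted p = 0.0155). Its fall against PBS was also lost under scaling to a common median, and without any 1 of the 4 arrays of these arms (-0.66 to -0.56, adjusted p = 0.169 to 0.302). The fall from 6 h was lost if the Ntg array of 6 h or either 24 h array was omitted (-0.86 to -0.73, adjusted p = 0.067 to 0.158).

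Of the genes of oxysterols, transport and droplets, 3 of 4 were tested. Ch25h, whose enzyme makes 25-hydroxycholesterol, had levels of 10.12, 13.75 and 12.48 in Ntg and 9.87, 13.90 and 11.84 in LRRK2KO. The 3 arms did not overlap, with both PBS arrays lowest and both 6 h arrays highest. Ch25h rose by 3.83 ± 0.22 at 6 h, 14.2-fold (adjusted p = 0.000362), and at 24 h it was 2.17 ± 0.22 above PBS, 4.49-fold (adjusted p = 0.00335). It fell by 1.67 ± 0.22 from 6 h to 24 h (adjusted p = 0.00773), a call lost without the LRRK2KO LPS 24 h array (-1.37, adjusted p = 0.0542).

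Plin2 encodes perilipin 2, a coat protein of lipid droplets. It read 11.36, 11.89 and 10.81 in Ntg and 10.91, 11.83 and 9.92 in LRRK2KO, so that both 6 h arrays were above the other 4. Plin2 rose by 0.73 ± 0.22 at 6 h (adjusted p = 0.0423) and fell by 1.495 ± 0.22 from 6 h to 24 h (adjusted p = 0.00994). The rise was lost without the LRRK2KO LPS 6 h array (0.43, adjusted p = 0.181) or either PBS array (0.71 and 0.74), and the fall without the LRRK2KO LPS 24 h array (-1.18, adjusted p = 0.0662).

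Stard4, a carrier of cholesterol between membranes, read 7.001, 5.84 and 5.41 in Ntg and 8.01, 6.88 and 7.60 in LRRK2KO. The PBS array was the highest in each genotype, the LRRK2KO array was above the Ntg array in each arm, and the arms overlapped. Stard4 fell by 1.14 ± 0.31 at 6 h (adjusted p = 0.0312), a call lost without any 1 of the 4 arrays of these arms (-1.45 to -0.84, adjusted p = 0.0515 to 0.283).

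Fatty acid synthesis was represented by 1 of 4 genes, since Scd1, Fasn and Acaca were below background throughout. Scd2, a fatty acid desaturase gene, was detected on 3 arrays. It read 5.13, 5.38 and 4.64 in Ntg and 5.47, 4.22 and 4.73 in LRRK2KO and was not called between arms.

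All 3 genes of fatty acid release and binding were tested. At 6 h against PBS 2 rose, against 15.8% of all genes, and 1 fell, against 26.2%. Fabp3, a cytosolic fatty acid carrier best known from heart muscle, read 9.10, 11.66 and 7.58 in Ntg and 9.35, 11.17 and 7.26 in LRRK2KO. The 3 arms did not overlap, and the 6 h arrays stood highest and the 24 h arrays lowest. Fabp3 rose by 2.19 ± 0.21 at 6 h, 4.55-fold (adjusted p = 0.00123), fell by 3.99 ± 0.21 from 6 h to 24 h, 15.9-fold (adjusted p = 0.00149), and fell by 1.81 ± 0.21 at 24 h against PBS (adjusted p = 0.00525).

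Fabp5, the related carrier of epidermis and macrophages, read 6.69, 8.38 and 5.67 in Ntg and 6.49, 8.62 and 7.43 in LRRK2KO. Both 6 h arrays were above the other 4, while the 24 h arrays lay on either side of PBS. It rose by 1.91 ± 0.45 at 6 h (adjusted p = 0.0193) and fell by 1.94 ± 0.45 from 6 h to 24 h (adjusted p = 0.0296). The rise was lost without the Ntg LPS 6 h array (1.63, adjusted p = 0.109) or the LRRK2KO PBS array (1.31, adjusted p = 0.107), and the fall without either 6 h array (-1.67 and -2.22) or the Ntg LPS 24 h array (-1.07, adjusted p = 0.105).

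Lpl, whose secreted lipase frees fatty acids from lipoproteins, read 14.52, 13.54 and 13.48 in Ntg and 14.06, 13.54 and 12.79 in LRRK2KO. Both PBS arrays were above all 4 LPS arrays. Lpl fell by 0.74 ± 0.20 at 6 h (adjusted p = 0.0306) and by 1.15 ± 0.20 at 24 h (adjusted p = 0.0167). The fall at 6 h was lost without the Ntg PBS, LRRK2KO PBS or Ntg LPS 6 h array (-0.68, -0.80 and -0.46) and with arrays scaled to a common median (-0.28, adjusted p = 0.333), and that at 24 h without any 1 of its 4 arrays (-1.38 to -0.92, adjusted p = 0.0616 to 0.144).

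Another 67 genes of these pathways were listed, of which 59 had a probe and 47 were tested. At 24 h against PBS 5 rose and 10 fell, where 6.54% and 8.99% of all genes did. At 6 h 9 rose and 13 fell, against 15.8% and 26.2%, and from 6 h to 24 h 5 rose and 4 fell, against 14.1% and 9.68%. Of the genes of cholesterol uptake, release and transport, 5 of 14 fell at each time against PBS, while 2 rose at 24 h and 3 at 6 h. The lysosomal lipase gene Lipa, whose enzyme frees cholesterol from its esters, read 13.05, 11.12 and 10.19 in Ntg and 12.66, 11.64 and 10.77 in LRRK2KO, and fell by 2.38 ± 0.27 at 24 h (adjusted p = 0.0046) and fell by 1.48 ± 0.27 at 6 h (adjusted p = 0.00838). Cyp27a1, the sterol 27-hydroxylase, fell by 2.22 ± 0.17 at 24 h and by 1.47 ± 0.17 at 6 h (adjusted p = 0.00139 and 0.00194). Nceh1, a cholesteryl ester hydrolase, fell by 1.80 ± 0.23 and 1.77 ± 0.23 (adjusted p = 0.00694 and 0.00313).

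Among the nuclear receptor genes of lipid use, Pparg and Rxra fell and Ppard rose, while Rxrb and Nr1h3 were not called between arms. Pparg, the receptor that promotes fatty acid storage, read 9.16, 6.01 and 6.79 in Ntg and 8.04, 5.09 and 5.44 in LRRK2KO, was detected on 5 arrays and fell by 3.06 ± 0.17 at 6 h (adjusted p = 0.000337) and fell by 2.48 ± 0.17 at 24 h (adjusted p = 0.00123). Ppard rose by 2.07 ± 0.22 at 6 h and 1.59 ± 0.22 at 24 h (adjusted p = 0.00162 and 0.00819), and Rxra, the partner of the liver X receptors, fell by 0.88 ± 0.14 and 1.01 ± 0.14 (adjusted p = 0.00613 and 0.00876). Hilpda, a droplet protein that inhibits triglyceride breakdown, read 8.55, 11.59 and 9.24 in Ntg and 7.72, 10.62 and 8.59 in LRRK2KO. It rose by 2.97 ± 0.16 at 6 h and fell by 2.19 ± 0.16 afterwards (adjusted p = 0.000301 and 0.00247).

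Of 8 tested genes of fatty acid synthesis and desaturation outside the listed ones, 4 fell and 0 rose at 6 h, when 26.2% of all genes fell and 15.8% rose. The desaturase gene Fads1 fell by 1.94 ± 0.17 (adjusted p = 0.00102), the acetyl-CoA synthetase gene Acss2 by 1.57 ± 0.33 (adjusted p = 0.013) and the elongase gene Elovl5 by 1.23 ± 0.19 (adjusted p = 0.00527). In the group of sterol synthesis and its control 2 of 6 rose at 6 h, Erlin2 by 0.56 ± 0.17 and Ufd1 by 0.76 ± 0.17 (adjusted p = 0.0438 and 0.0172), both of the machinery that degrades HMG-CoA reductase and INSIG. At 24 h Lbr, a sterol reductase of the nuclear envelope, fell by 0.97 ± 0.23 (adjusted p = 0.0415), and Erlin1 rose by 0.59 ± 0.15 (adjusted p = 0.0481).

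Between genotypes, averaged over the 3 arms (n = 3 arrays each), limma called 0 of the 28 genes, against 0.465% of all genes. At an unadjusted p under 0.05 there were 10 of 28, 8 of them higher in LRRK2KO, against 16.1% of all genes. With a mean-dependent prior limma called 2 higher, Mvd and Stard4, and 1 lower, Apoe. Of all 8598 genes it then called 74 higher and 109 lower. In all 3 arms the LRRK2KO array was above the Ntg array for 10 of 28, against 19.0% of all genes. It was below for 3, Abcg1, Apoe and Plin2, against 20.2%. Among the 10, a second Insig2 probe, detected on all 6 arrays, read 8.27, 8.38 and 8.72 in Ntg and 7.91, 7.64 and 8.19 in LRRK2KO. A second Lss probe, detected on 3 arrays, was lower in LRRK2KO at 6 h and 24 h. The other Insig1 probe detected on all arrays was lower at 6 h only, at 7.67 against 7.69. Their other detected probes, of Sqle and Insig1, were higher in every arm. Among the 12 tested enzymes of sterol synthesis the fitted difference was positive for 12, none of them called, with a median of 0.32 and 7 above Ntg in all 3 arms. Over all genes it was positive for 4309 of 8598. Of the 8 tested microglial markers it was positive for 6, with a median of 0.42, and 1 was called higher; the LRRK2KO array was above the Ntg array in all 3 arms for 6 of them. Their part in the genotype differences was not tested.

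**Figure D4:**
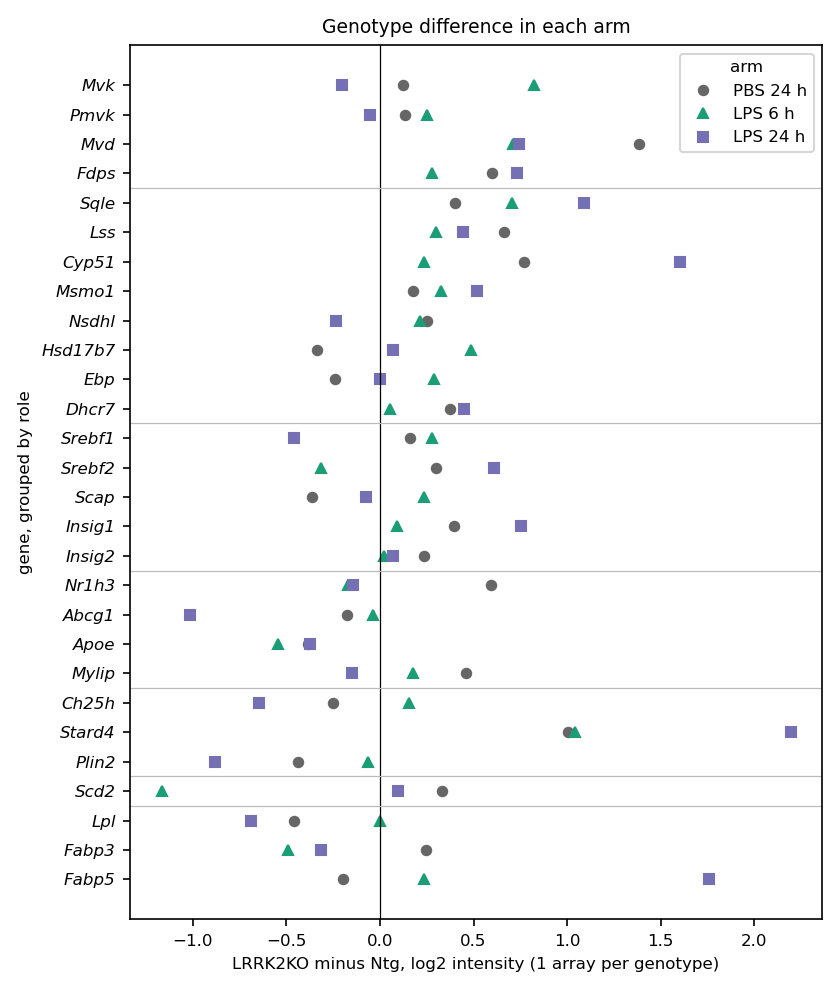
LRRK2KO minus Ntg log2 intensity (x axis) for the 28 tested genes (y axis, grouped by role) in the 3 arms, each point being the difference between 1 array of each genotype. Stard4 lies to the right in every arm, at 1.01, 1.04 and 2.19, and Mvd, Fdps, Sqle, Lss, Cyp51, Msmo1 and Dhcr7 lie to the right of 0 in all 3.

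Stard4 gave 1.41 ± 0.25 (adjusted p = 0.0971) and Mvd 0.95 ± 0.17 (adjusted p = 0.098). The Mvd levels were 6.90, 6.62 and 6.98 in Ntg and 8.29, 7.33 and 7.72 in LRRK2KO, so that the genotypes did not overlap. Next came Cyp51 at 0.87 ± 0.26, Sqle at 0.73 ± 0.16 and Fdps at 0.54 ± 0.14 (adjusted p = 0.204, 0.128 and 0.162). Without the Ntg or the LRRK2KO 6 h array 9 of the 12 enzymes were positive, without either PBS array 11, and without either 24 h array 12. With arrays scaled to a common median over all probes, a setting that lowered all genes by 0.13 in this comparison, 8 were positive. There 3 of the 28 were called higher, Cyp51, Mvd and Stard4, and 99 of all genes. Of the other pathway genes Pparg alone was called, at -1.13 ± 0.14 in LRRK2KO against Ntg (adjusted p = 0.0437).

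Marker levels also differed between genotypes on the same arrays. The summed linear intensity of the 3 detected choroid plexus markers of 6 with a probe, Ttr, Clic6 and Ecrg4, was 6938, 2600 and 4551 on the Ntg arrays and 712, 637 and 255 on the LRRK2KO arrays, while Kl, Folr1 and Aqp1 were below background. That of 3 detected border macrophage markers of 5, Mrc1, Pf4 and Ms4a7, was 13410, 9490 and 10310 against 7616, 7062 and 7008, with Lyve1 and Cd163 below background. Of 7 fibroblast and pericyte markers Col1a1 and Dcn were detected, each on some arrays only, and their sum was 93.1, 379.7 and 343 against 60.92, 51.48 and 162.6; Col1a2, Col3a1, Lum, Pdgfrb and Rgs5 were below background. At 6 h Dcn read 8.49 in Ntg and 4.83 in LRRK2KO. The microglial marker Olfml3 ran the other way, with 9.35, 9.61 and 6.83 in Ntg and 10.76, 10.79 and 8.74 in LRRK2KO. Their part in the genotype differences was not tested.

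Within an arm each genotype has 1 array, so the following differences have no replicate check. In PBS 2 of the 28 genes were at least 2-fold apart, against 2.74% of all genes: Mvd (1.39) and Stard4 (1.01), both higher in LRRK2KO. At 6 h there were 2, against 3.49%: Stard4 (1.04) and Scd2 (-1.17). Scd2 was below background on the LRRK2KO 6 h array and read 5.38 on the Ntg 6 h array, where the lowest signal detected was 5.31. At 24 h there were 5, against 3.93%: Stard4 (2.19), Fabp5 (1.76), Cyp51 (1.60) and Sqle (1.09) were higher in LRRK2KO, and Abcg1 (-1.02) was lower. Without background correction, and with the authors' deposited values, these counts were 0, 0 and 1.

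The response to LPS differed at least 2-fold between genotypes for 1 of the 28 genes at 6 h against PBS, Scd2 (-1.499), against 5.14% of all genes. That value rests on the LRRK2KO 6 h array, where Scd2 was below background. At 24 h against PBS there were 2, against 2.64%, Stard4 (1.19) and Fabp5 (1.96). From 6 h to 24 h there were 4, against 3.36%: Cyp51 (1.37), Stard4 (1.15) and Fabp5 (1.52) had fallen less or risen in LRRK2KO, and Mvk gave -1.03. Mvk was below background on the Ntg 6 h array, at 4.65, where the lowest signal detected was 5.31. In the same 2 settings the counts at 6 h against PBS, at 24 h against PBS and from 6 h to 24 h were 0, 1 and 0. Responses of opposite sign, at least 1.2-fold in each genotype, were seen for 1 of the 28 genes at 6 h against PBS (3.36% of all genes), for 2 at 24 h against PBS (2.52%) and for 2 from 6 h to 24 h (3.19%). These differences between single arrays were not tested.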

How the data were processed

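Total RNA of 6 samples was labelled and hybridised to Illumina bead arrays, 1 per group. Per the file headers, the authors deposited 1 intensity and 1 detection p-value per probe and array, not normalized, for 45281 probes. A second deposited table holds the authors' normalized intensity, whose array medians were all near 101.2. Per the submitters' processing notes BeadStudio was used (version not given in the sources used here). Every column was mapped to a sample by its label (0 were not).

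Intensities were background-corrected with limma's nec function (limma 3.58.1, R 4.3.3; background estimated from detection p-values, offset 16), quantile-normalized and put on the log2 scale. The platform annotation named 34885 probes with 1 gene, 18 with several and 10378 with none; 2004 of the 15553 detected on 2 or more arrays lacked a unique name and were left out. Each gene was represented by its brightest probe detected (p under 0.01) on at least 2 arrays. lmFit and eBayes fitted arm and genotype additively over all 6 arrays (2 residual and 3.88 prior degrees of freedom), with Benjamini-Hochberg adjustment over 8598 genes. The number of arrays limits the precision, and any dependence of a response on genotype enters the error.

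Listed genes with values on every array are those called in a comparison, plus Srebf1, Nr1h3 and Scd2; Mvd was added after its values were seen. Other pathway genes are up to 3 per group with the largest called change, and Rxrb, which was not called. The genes and lists were chosen with earlier results of these data known. Alternatives were the background correction, scaling, detection filter, probe choice, prior variance, genotype term, the authors' deposited values and leaving out each array.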

Additional observations from a re-analysis of the deposited data

Results flagged for a closer look

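Of the 28 genes, 4 had readings that moved in opposite directions in the genotypes, each by at least 1.2-fold. There was 1 array per point, so that these differences were not tested. The same was true of 3.36% of all genes at 6 h against PBS, 2.52% at 24 h against PBS and 3.19% from 6 h to 24 h, against 1, 2 and 2 of the 28. Nr1h3 was higher in Ntg and lower in LRRK2KO at 6 h against PBS (0.30 and -0.47, a difference of -0.76) and at 24 h against PBS (0.31 and -0.42, a difference of -0.73). Fabp5 at 24 h against PBS gave -1.02 in Ntg and 0.94 in LRRK2KO, a difference of 1.96. Stard4 from 6 h to 24 h gave -0.43 in Ntg and 0.72 in LRRK2KO, a difference of 1.15. Scd2 over the same interval gave -0.74 and 0.52, a difference of 1.26, but it was detected on only 3 arrays. It was below background on the LRRK2KO arrays of 6 h and 24 h and on the Ntg array of 24 h, so its direction in LRRK2KO was not measured.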

How the results depend on the processing

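No paired analysis was possible because every group had 1 array with the same replicate number, so no replicate block could be fitted; the additive fit itself compares arms within genotype. None of the 32 called differences reversed under the alternatives run, and 7 of them were called under all that gave them a value. The median of all genes at 6 h against PBS was -0.13, 0.02 with arrays scaled to a common median of probes detected on all arrays (1711 genes higher and 1769 lower, in place of 1357 and 2256; 7 and 5 of the 28) and -0.39 with a common median of all probes, an alternative added after seeing the data (779 and 3090). From 6 h to 24 h those scalings gave 1001 and 1052, and 1951 and 567, in place of 1216 and 832 genes, and between genotypes 35 and 46, and 99 and 345, in place of 14 and 26. With the common median of all probes 12 of the 28 fell at 6 h, 7 rose from 6 h to 24 h, and 3 were higher in LRRK2KO. Without background correction, with the authors' deposited values and with a mean-dependent prior 2 rose at 24 h against PBS. Of all genes 643, 643 and 691 rose there. The mean-dependent prior also called 2 higher and 1 lower in LRRK2KO, against 74 and 109 of all genes. Without a detection filter 3 of 34 listed genes rose at 6 h, against 1235 of 19057 genes. Without the genotype term the falls were 2 at 24 h, 3 at 6 h and 6 from 6 h to 24 h. Of all genes 440, 1844 and 490 fell there. With each array left out, the counts were 1 rise and 1 to 10 falls at 24 h, 2 to 6 and 2 to 6 at 6 h, and 0 to 4 and 3 to 9 from 6 h to 24 h; 0 differed between genotypes in either direction, and 9 to 12 enzymes were positive. Without a PBS or a 24 h array hardly any of all 8598 genes was called between genotypes either. The 0 in those fits therefore says nothing of the 28 in particular. Without either 6 h array more of all genes were called between genotypes than in the main fit, and still none of the 28. Genes at least 2-fold apart between genotypes numbered 0, 0 and 1 (PBS, 6 h, 24 h) without background correction and with the deposited values, 1 at 6 h with a common median, and 0 and 1 (PBS, 6 h) with a common median of all probes. Responses at least 2-fold apart numbered 0 at 6 h against PBS, 1 at 24 h against PBS and 0 from 6 h to 24 h in the former 2 settings, and 2, 4 and 4 with a common median of all probes. The cause of these changes was not tested. Low signal limits what can be said of the genes below background.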
